A study of Homo sapiens with 24 samples.

Results

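The genes described here are 42 writers and erasers of histone lysine methylation: the core of Polycomb repressive complex 2 (PRC2) with its partner JARID2, the SET domain methyltransferases of the KMT2, SETD, NSD, EHMT, SUV39H, SMYD and PRDM families together with DOT1L, and the KDM and PHF demethylases. They were chosen by symbol, with earlier results of these data known. Each of the 42 symbols matched 1 gene among the 57820 of the deposited expression table, and all 42 were among the 17860 genes with a normalised count of at least 10 in at least 3 libraries, which were the genes tested. Messenger RNA was measured by RNA sequencing in RBE and SNU1079, which are human cholangiocarcinoma (bile duct cancer) cell lines that carry mutant IDH1 and express the sulfotransferase SULT1A1 at a high level. The series is titled as a study of how liver lineage makes cancer cells sensitive to alkylating compounds that need sulfonation. Cells were exposed to YC-1 or to its vehicle DMSO for 6 h or 16 h, which gave 8 groups of 3 libraries, and no dose is stated.

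The groups were RBE with DMSO for 6 h, RBE with YC-1 for 6 h, RBE with DMSO for 16 h, RBE with YC-1 for 16 h, and the same 4 groups of SNU1079. YC-1 is a small indazole compound. It is known to stimulate soluble guanylate cyclase and to lower HIF-1 activity. Every cell in the comparison, DMSO controls included, carried the IDH1 mutation, and each line derives from 1 tumour. The design text calls the 3 libraries of a group biological replicates. The times follow the sample titles, and a second time label contradicts them, with 16 h throughout the DMSO samples and 6 h throughout the YC-1 samples.

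Methyl groups on the lysines of histone H3 mark chromatin states. PRC2 places H3K27 methylation on silenced genes, with EZH1 or EZH2 as the enzyme, EED and SUZ12 as the core partners and JARID2 as an accessory subunit that helps recruit the complex, and KDM6A and KDM6B remove the same mark. KMT2 and SETD1 enzymes methylate H3K4 at promoters and enhancers, SETD2, NSD1 and ASH1L methylate H3K36, DOT1L methylates H3K79, and EHMT, SUV39H and SETDB enzymes methylate H3K9 in silenced chromatin. The LSD demethylases KDM1A and KDM1B use FAD, whereas the JmjC demethylases are iron-dependent dioxygenases that consume 2-oxoglutarate. Mutant IDH1 makes 2-hydroxyglutarate, a known competitive inhibitor of several JmjC enzymes.

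After YC-1, 29 of the 42 transcripts fell in at least 1 of the 4 comparisons with DMSO and 7 rose in at least 1, against 35.8% and 39.6% of all tested genes. Each gene was tested with limma on log2(normalised count + 1), a scale that understates the change of low genes, and a gene is said to have risen or fallen when its adjusted p was under 0.05. Of the 42 genes, 17 fell and 3 rose in RBE at 6 h, against 12.4% of all tested genes called lower and 11.6% called higher. In RBE at 16 h, 24 fell and 4 rose, against 26.6% and 27.3% of all tested genes. In SNU1079 at 6 h, 20 fell and 3 rose, with all tested genes at 14.2% and 14.0%. In SNU1079 at 16 h, 24 fell and 5 rose, with all tested genes at 25.8% and 28.7%. The members' median log2 fold change was -0.34 and -0.80 in RBE at 6 h and 16 h and -0.40 and -0.74 in SNU1079, while the median of all tested genes was 0.00, 0.02, 0.01 and 0.06 in the same order. The SNU1079 count at 6 h depended on the libraries that set the spread: 11 fell when only the 12 SNU1079 libraries were fitted and 12 when only the 6 compared libraries were, fits in which 9.47% and 10.2% of all tested genes fell. Without 3 of the SNU1079 libraries that stand apart (YC-1 at 6 h replicate 1, DMSO at 16 h replicate 1 and YC-1 at 16 h replicate 2, chosen after the data were seen), 19 fell at 6 h and 24 at 16 h in SNU1079, against 17.2% and 26.9% of all tested genes. In RBE, 20 and 27 then fell, against 18.3% and 30.9%. The counts given below for groups of members and for further lists are to be read against the shares of all tested genes called lower and higher in the same comparison, given above.

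The same 11 genes fell in all 4 comparisons: JARID2, KMT2C, SETD2, ASH1L, EHMT1, SETD5, KDM1A, PHF2, KDM4B, KDM4C and KDM6A. They make up 26.2% of the members, where 7.5% of all tested genes fell in all 4. SETD2, SETD5, KDM1A and KDM4B each lost 1 of their SNU1079 calls when only the 12 SNU1079 libraries or only the 6 compared libraries were fitted. Outside the 11, SUZ12, NSD1, SUV39H1, PRDM2, SMYD3 and KDM2B lost their SNU1079 calls at 6 h in both of these fits. At 16 h SUZ12, SETD1A, NSD1, DOT1L and SETDB2 did so. KDM4A and KDM6B rose in all 4 comparisons, which is 4.76% of the members against 6.18% of all tested genes. No call was made in any comparison for EZH1, EHMT2, SUV39H2, SMYD2, KDM1B and PHF8, 14.3% of the members against 27.2% of all tested genes. No member rose in 1 comparison and fell in another, as 2.53% of all tested genes did. Of the 100 calls, 70 held under every alternative way of processing that was run, and 18 were lost when 1 library was left out. In a bulk measurement, fewer cells of a type and less RNA per cell cannot be told apart.

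**Figure D1:**
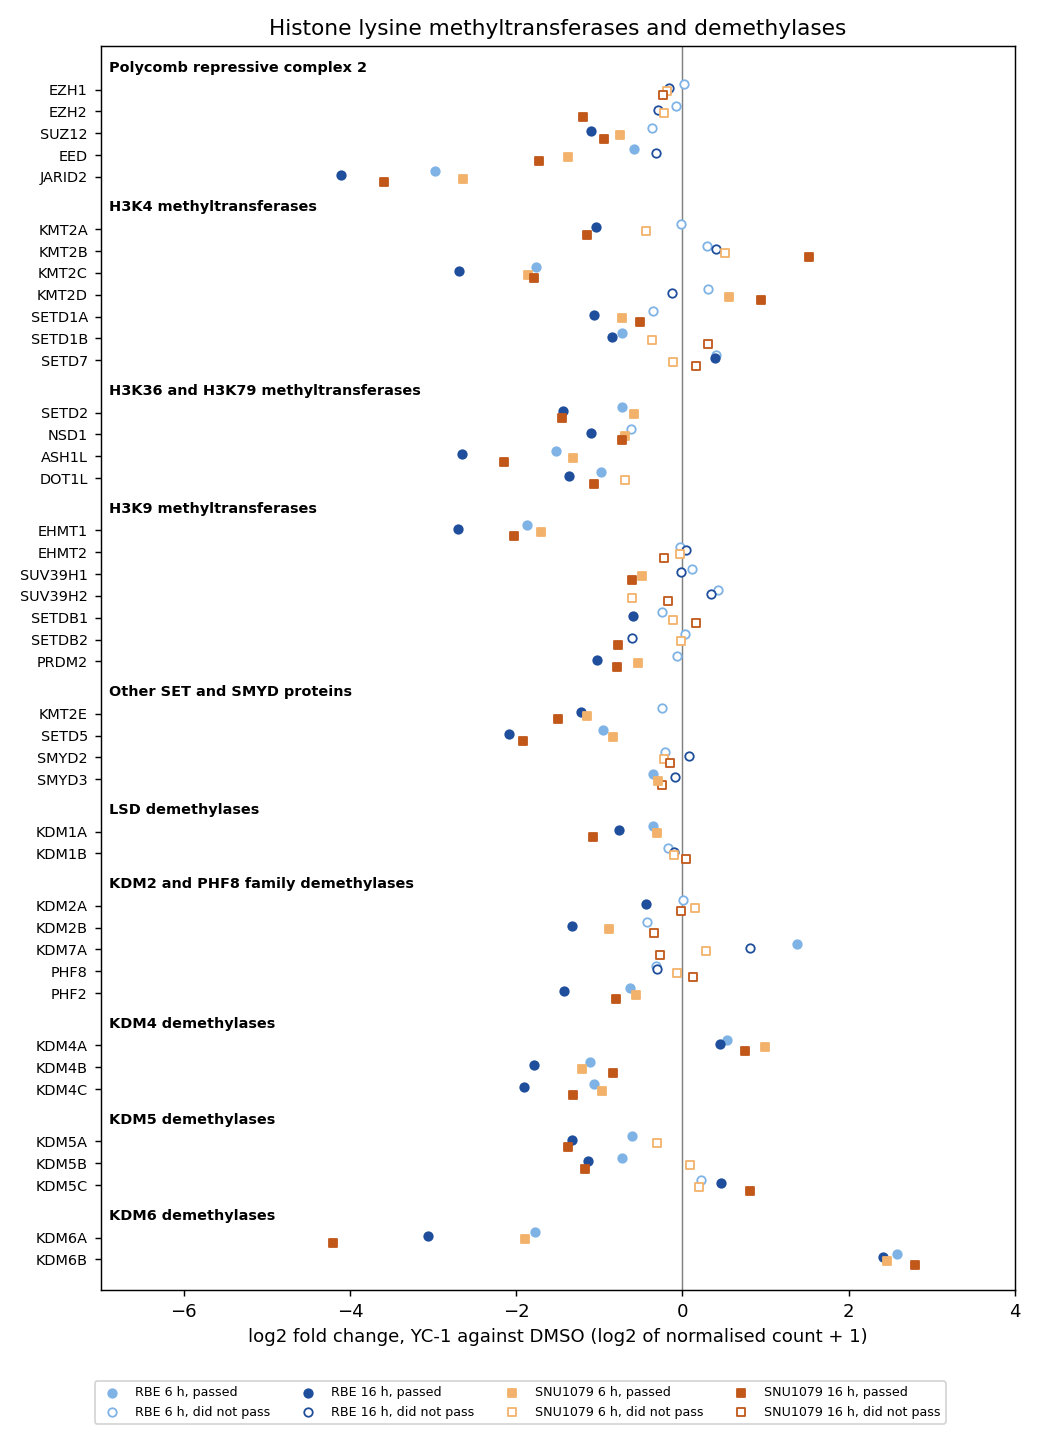
Log2 fold change of each of the 42 genes under YC-1 against DMSO (x axis, log2 of normalised count + 1) in RBE (circles) and SNU1079 (squares) at 6 h (light) and 16 h (dark), with genes grouped by role on the y axis. Filled symbols had an adjusted p under 0.05 and open symbols did not. JARID2 and KDM6A lie farthest to the left and KDM6B farthest to the right.

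Normalised counts summed to between 19005743 and 27008873 per library, and no 2 libraries held identical values. In SNU1079, 4 libraries correlated with their group mates below an r of 0.97: YC-1 at 6 h replicate 1, DMSO at 16 h replicate 1, and YC-1 at 16 h replicates 2 and 3. The share of mitochondrially encoded transcripts was 6.02% to 8.5% in DMSO, 7.78% to 11.5% after YC-1 at 6 h and 3.38% to 22.1% after YC-1 at 16 h, and its part in the results was not tested. The 42 genes together held 0.193% to 0.233% of the signal in the RBE DMSO libraries and 0.114% to 0.115% in RBE with YC-1 at 16 h. In SNU1079 they held 0.178% to 0.205% in DMSO and 0.105% to 0.124% with YC-1 at 16 h. Of 7 cholangiocyte markers in the table, 6 reached 10 in at least 3 libraries of both lines, with KRT7 at 21150 or above and KRT19 at 5609 or above in every library, while CFTR stayed at or below 7.095. Of 5 leukocyte markers, PTPRC and CD3E stayed at or below 6.731, CD14 reached 62.61, and CD68, a lysosomal protein gene, lay between 1036 and 4110, with a summed level of 1108 to 2217 in RBE and 1098 to 4151 in SNU1079. Of 6 hepatocyte markers, ALB stayed at or below 10.45 and APOA1 at or below 4.75, whereas SERPINA1 lay between 1134 and 2142 in every library, and HNF4A lay between 67.51 and 174.8 in RBE and at or below 2.32 in SNU1079. The 4 endothelial markers together stayed at or below 52.02. Of 5 fibroblast markers, DCN was listed at 0 in every library and PDGFRB lay between 12.52 and 115.3. The fibroblast collagen gene COL1A1 lay between 660.5 and 3808 in SNU1079 and between 5.398 and 59.43 in RBE. The part of these marker levels in the results was not tested.

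The deposited scaling sets the level against which a fall or a rise is read. When libraries were scaled to equal sums, the median of all tested genes moved to -0.28 in RBE and -0.26 in SNU1079 at 16 h, all tested genes split into 2875 higher and 6484 lower in RBE and 3025 and 6619 in SNU1079, and the members into 1 and 34 and into 5 and 30. Scaling to equal sums without mitochondrial genes gave members' counts of 2 higher and 28 lower in RBE and 5 and 30 in SNU1079, with all tested genes at 3721 and 5710 and at 3756 and 5921. When libraries were scaled to the cytosolic ribosomal protein genes, the all-gene median moved to -0.89 in RBE and -0.45 in SNU1079 at 16 h. All tested genes then split into 899 higher and 10427 lower in RBE and 2141 and 7507 in SNU1079, and the members into 1 and 39 and into 2 and 31. At 6 h this scaling gave an all-gene median of -0.19 in SNU1079, with 1311 genes higher and 3448 lower and members at 2 and 23. The members' median lay 0.88 below the all-gene median in RBE at 16 h under this scaling and 0.82 below it under the deposited one, and 0.84 and 0.80 below it in SNU1079 at 16 h.

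Promoter sequence is shown for the 3 members with the largest changes, since the JARID2 and KDM6A transcripts fell most and the KDM6B transcript rose most. RefSeq promoter windows (GRCh38.p14, 250 bases before to 50 after an annotated RNA start, 300 bases) were found for 40 of the 42 genes, with DOT1L and SETD1B not matched, and JARID2 and KDM6B each have a pair of windows. They were searched on both strands for 3 motifs of stress-responsive factors: the cyclic AMP response element TGACGTCA, the AP-1 site TGANTCA and the composite C/EBP-ATF site TGATGNAA. Each sequence is given 5′ to 3′ on the gene's plus strand in lower case, with capitals marking a motif match.
JARID2, chr6:15248605-15248904: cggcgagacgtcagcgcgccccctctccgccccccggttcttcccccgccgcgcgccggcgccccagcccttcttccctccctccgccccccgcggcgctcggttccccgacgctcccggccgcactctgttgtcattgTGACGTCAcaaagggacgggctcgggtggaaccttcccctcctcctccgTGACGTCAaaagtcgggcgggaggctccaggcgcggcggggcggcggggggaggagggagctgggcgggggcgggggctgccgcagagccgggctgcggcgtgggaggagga
KDM6A, chrX:44872938-44873237: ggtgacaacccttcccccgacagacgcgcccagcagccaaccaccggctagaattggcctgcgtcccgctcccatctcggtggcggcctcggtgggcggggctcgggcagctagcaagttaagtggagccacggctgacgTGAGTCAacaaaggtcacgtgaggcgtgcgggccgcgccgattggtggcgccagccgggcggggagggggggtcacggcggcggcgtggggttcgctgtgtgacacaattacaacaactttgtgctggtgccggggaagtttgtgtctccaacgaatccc
KDM6B, chr17:7839667-7839966: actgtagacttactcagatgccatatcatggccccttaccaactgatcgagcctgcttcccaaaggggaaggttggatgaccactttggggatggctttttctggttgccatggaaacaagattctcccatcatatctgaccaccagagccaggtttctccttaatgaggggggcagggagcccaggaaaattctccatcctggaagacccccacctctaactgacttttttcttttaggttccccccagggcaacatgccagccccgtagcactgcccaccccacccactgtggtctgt
The JARID2 window shown is the farther of its pair from the GENCODE gene start. Its RNA start lies 2559 bases from that start, against 227 bases for the window not shown. For KDM6B the nearer window is shown, at 13 bases against 5687, so the choice of window differed between these genes. The JARID2 window shown holds 2 copies of TGACGTCA, which begin 111 and 62 bases before its RNA start. The KDM6A window holds 1 AP-1 match, TGAGTCA, 110 bases before the start. None of the 3 motifs is in the KDM6B window shown or in its second window, or in the nearer JARID2 window, which is not shown. Of the members' 58 windows, the letters TGACGTCA occur in 3 (5.17%, in JARID2, PHF8 and SUV39H2), against 1.85% of all 35116 windows. TGANTCA occurs in 2 of them (3.45%, in KDM4C and KDM6A), against 7.71%, and TGATGNAA in 0, against 3.62%. A match is a description of the letters, and its part in the results was not tested. PHF8 and SUV39H2, the other members with TGACGTCA, were called in no comparison.

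Within PRC2, JARID2 (chromosome 6, 15246296 to 15522040, GENCODE 29 on GRCh38, plus strand) fell throughout, SUZ12 and EED each fell in 3 of the 4 comparisons, and of the catalytic subunits EZH2 fell in 1 and EZH1 in none. JARID2 stood in RBE at 334, 351 and 348 in DMSO and 41.9, 49.3 and 38.6 after YC-1 at 6 h. JARID2 in RBE at 16 h was at 299, 375 and 393 in DMSO and 8.94, 40.2 and 20.1 after YC-1. In SNU1079, JARID2 counts were 857, 873 and 840.3 in DMSO and 154, 124 and 132 after YC-1 at 6 h. JARID2 in SNU1079 at 16 h was at 714, 638 and 743 in DMSO and 91.1, 40.2 and 50.1 after YC-1. Every YC-1 library lay below every DMSO library of its line and time, by a mean fold of 7.85 and 17.3 in RBE and 6.25 and 12.1 in SNU1079. Log2 fold changes with their SE were -2.97 ± 0.33 and -4.11 ± 0.33 in RBE and -2.64 ± 0.33 and -3.59 ± 0.33 in SNU1079, with adjusted p = 9.63e-07 and 1.75e-09 for RBE and 3.59e-06 and 1.42e-08 for SNU1079. JARID2 itself has no demethylase activity, although it belongs by sequence to the JmjC family.

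EED (chromosome 11, 86244544 to 86278813) is the WD40 subunit that binds trimethylated H3K27 and stimulates the enzyme. Its counts in RBE were 802, 787 and 724 in DMSO and 489, 531 and 523 after YC-1 at 6 h. EED in RBE at 16 h was at 744, 716 and 703 in DMSO and 611, 574 and 543 after YC-1. In SNU1079 they were 638, 625 and 588 in DMSO and 194, 241 and 287 after YC-1 at 6 h. EED in SNU1079 at 16 h was at 585, 654 and 667 in DMSO and 236, 158 and 184 after YC-1. The YC-1 and DMSO libraries were separate in all 4 comparisons, and the drop in SNU1079 was the deeper one, to 3.32-fold below DMSO at 16 h. EED fell by 0.58 ± 0.14 on the log2 scale in RBE at 6 h (adjusted p = 0.0033), and its value in RBE at 16 h was -0.32 ± 0.14 (adjusted p = 0.0529). In SNU1079 it fell by 1.37 ± 0.14 and 1.73 ± 0.14 (adjusted p = 1.98e-07 and 1.67e-09). The difference between the lines itself passed the test, at -0.79 ± 0.20 at 6 h (adjusted p = 0.0425) and -1.41 ± 0.20 at 16 h (adjusted p = 6.33e-05). The 16 h difference held under every alternative run. The 6 h difference was lost in 18 of the 24 fits that left out 1 library (adjusted p from 0.052 to 0.113), without a filter on low values (adjusted p = 0.0612), with upper quartile scaling (0.0522), with ribosomal protein scaling (0.0751), with the compared libraries alone (0.0643) and with a replicate block (0.0842).

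SUZ12 (chromosome 17, 31937018 to 32001045), which holds the complex together, was measured in RBE at 2131, 2784 and 2534 in DMSO and 1904, 2041 and 1784 after YC-1 at 6 h. SUZ12 in RBE at 16 h was at 3067, 2720.2 and 2898 in DMSO and 1377, 1353 and 1318 after YC-1. In SNU1079 its counts were 2547, 2439 and 1952 in DMSO and 783, 1944 and 1669.6 after YC-1 at 6 h. SUZ12 in SNU1079 at 16 h was at 1426, 2279.6 and 2878 in DMSO and 1038, 888 and 1446 after YC-1. The groups were separate in RBE at both times and in SNU1079 at 6 h, but overlapped in SNU1079 at 16 h, where DMSO replicate 1 was low. SUZ12 fell in RBE at 16 h (-1.10 ± 0.26, adjusted p = 0.0012), in SNU1079 at 6 h (-0.75 ± 0.26, adjusted p = 0.0342) and in SNU1079 at 16 h (-0.94 ± 0.26, adjusted p = 0.0044), and its RBE value at 6 h was -0.37 ± 0.26 (adjusted p = 0.345). The 6 h call in SNU1079 was lost without DMSO replicate 1, DMSO replicate 2 or YC-1 replicate 1 (log2 fold change from -0.71 to -0.35, adjusted p from 0.0965 to 0.252). It was also lost with the compared libraries alone (adjusted p = 0.218), the 12 SNU1079 libraries alone (0.191), no filter (0.059) and no intensity trend (0.0525). The 16 h call was lost with the 12 SNU1079 libraries alone (adjusted p = 0.0568) and the compared libraries alone (0.0667). SUZ12 has a pseudogene of high similarity, so its values are uncertain where reads could be assigned to either copy.

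EZH2 (chromosome 7, 148807383 to 148884321), the main enzyme of dividing cells, stood in RBE at 1479, 1495 and 1484 in DMSO and 1298, 1507 and 1409.7 after YC-1 at 6 h. EZH2 in RBE at 16 h was at 1503, 1399 and 1342 in DMSO and 1150, 1285 and 1047 after YC-1. SNU1079 gave EZH2 counts of 991, 921 and 939 in DMSO and 631, 887 and 979.5 after YC-1 at 6 h. EZH2 in SNU1079 at 16 h was at 1339, 1437 and 1472 in DMSO and 673, 565 and 609 after YC-1. The YC-1 libraries of SNU1079 at 16 h were all below their DMSO libraries, as were those of RBE at 16 h, and those of both lines at 6 h overlapped them. EZH2 fell in SNU1079 at 16 h, 2.3-fold (-1.20 ± 0.13, adjusted p = 7.49e-08), and the other 3 values were -0.08, -0.29 and -0.22 (adjusted p = 0.707, 0.0574 and 0.223). The controls differed too: EZH2 was 0.57 ± 0.13 higher in SNU1079 DMSO at 16 h than at 6 h (adjusted p = 0.00563), a call lost with ribosomal protein scaling (adjusted p = 0.072) and with the 12 SNU1079 libraries alone (0.0789). EZH1, the paralogue known from resting cells, had RBE counts of 321, 315 and 298 in DMSO and 246, 358 and 356 after YC-1 at 6 h. EZH1 in RBE at 16 h was at 326, 262 and 324 in DMSO and 324, 231 and 264 after YC-1. EZH1 counts in SNU1079 were 567, 451 and 499.7 in DMSO and 467, 384 and 484 after YC-1 at 6 h. EZH1 in SNU1079 at 16 h was at 524, 463 and 531 in DMSO and 588, 377 and 362 after YC-1. Its groups overlapped in all 4 comparisons, and its fold changes of 0.02 and -0.16 in RBE and -0.19 and -0.23 in SNU1079 did not pass (adjusted p = 0.967 and 0.487 for RBE and 0.505 and 0.306 for SNU1079).

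**Figure D2:**
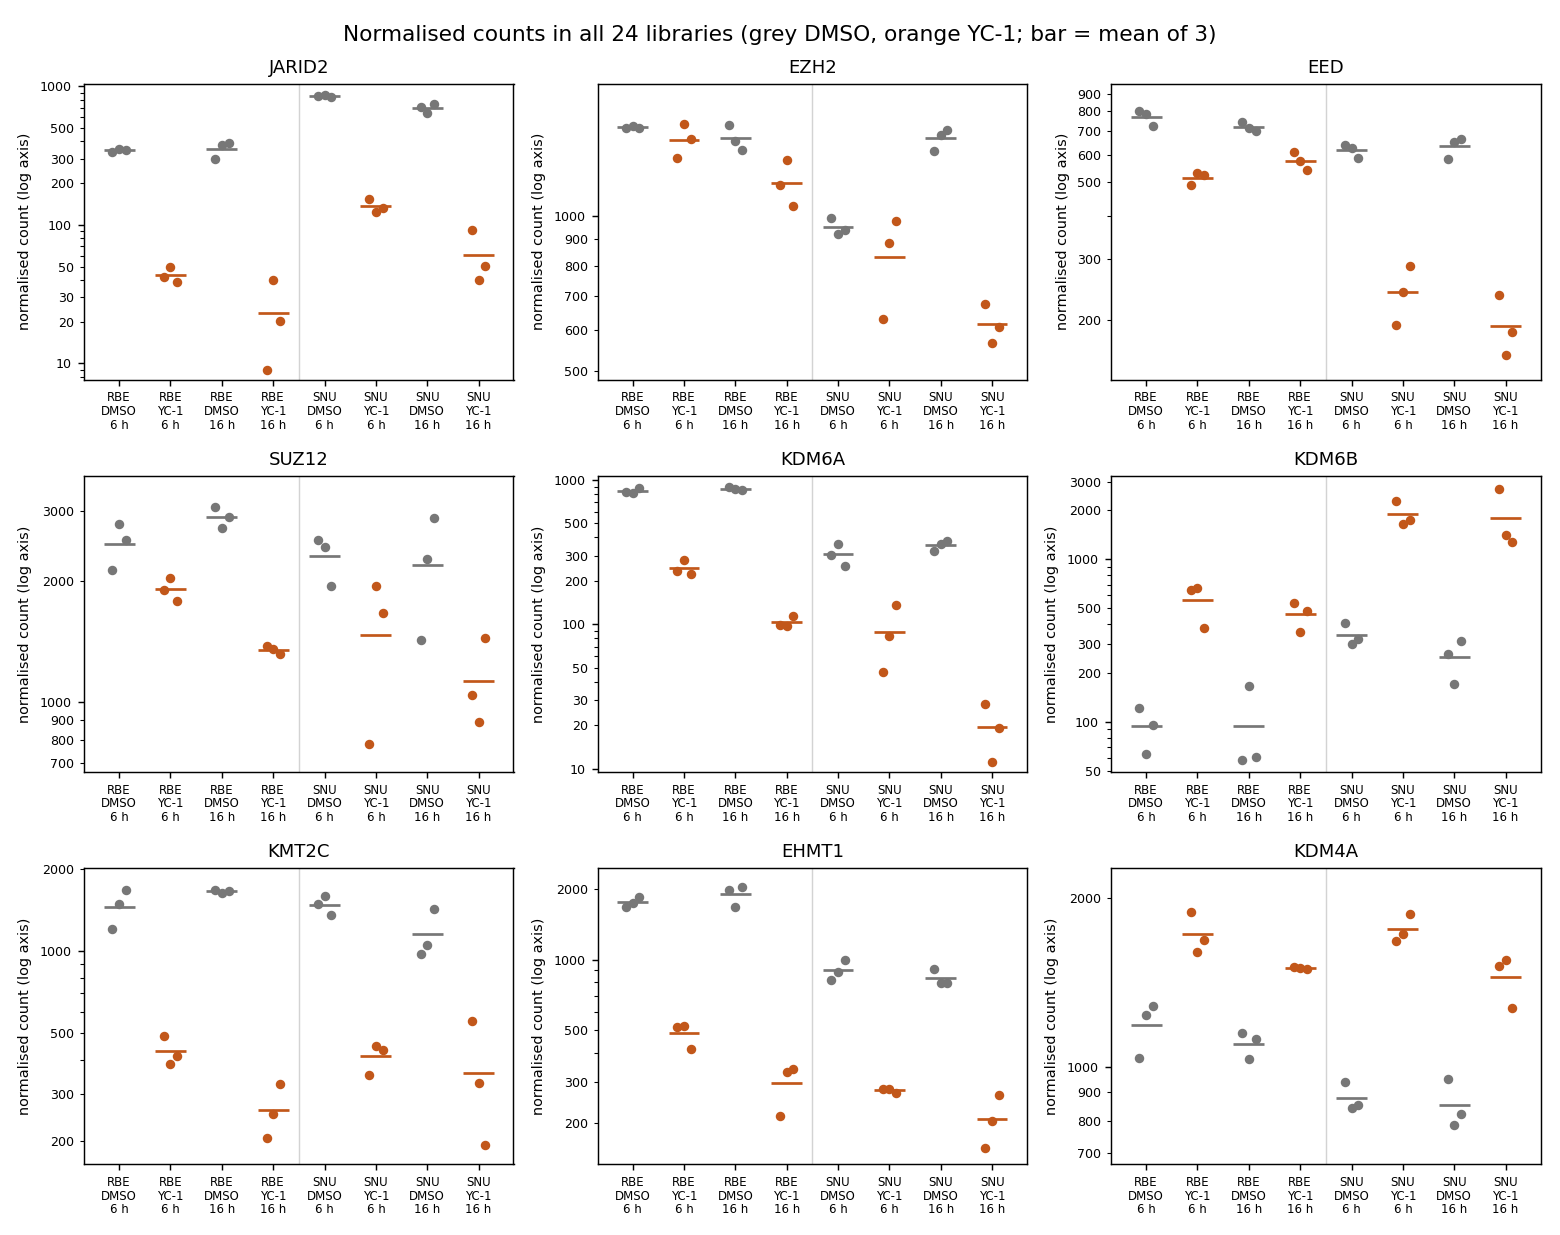
Normalised counts (y axis, log scale, a separate range per panel) of 9 members in each of the 24 libraries, by group (x axis, RBE left of the line and SNU1079 right of it). Points are libraries, grey for DMSO and orange for YC-1, and bars are means of 3. JARID2, KDM6A, KMT2C and EHMT1 drop in every YC-1 group, KDM6B and KDM4A rise, and EZH2 drops clear of its controls in SNU1079 at 16 h.

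Of the 7 H3K4 methyltransferases, 2 fell and 0 rose in RBE at 6 h, 4 fell and 1 rose in RBE at 16 h, 2 fell and 1 rose in SNU1079 at 6 h, and 3 fell and 2 rose in SNU1079 at 16 h, where 25.8% of all tested genes fell and 28.7% rose. KMT2C, the enhancer enzyme also known as MLL3 (chromosome 7, 152134922 to 152436005, minus strand), was the one that fell throughout. Its RBE counts were 1203, 1491 and 1687 in DMSO and 488, 387 and 411 after YC-1 at 6 h. KMT2C in RBE at 16 h was at 1682, 1633 and 1666 in DMSO and 205, 251 and 327 after YC-1. KMT2C in SNU1079 gave 1498, 1601 and 1359 in DMSO and 351, 448 and 434 after YC-1 at 6 h. KMT2C in SNU1079 at 16 h was at 977, 1058 and 1425 in DMSO and 553, 328 and 194 after YC-1. No YC-1 library reached a DMSO library of its line and time, and the transcript was 3.39-fold and 6.45-fold lower in RBE and 3.62-fold and 3.46-fold lower in SNU1079. Adjusted p-values were 2.04e-05 and 1.49e-08 for RBE and 9.06e-06 and 4.15e-06 for SNU1079. Parts of KMT2C have near-identical copies elsewhere in the genome, which makes its counts uncertain to that extent.

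KMT2D, the paralogue that shares the enhancer role of KMT2C, went the other way in SNU1079. KMT2D counts in RBE were 1753, 2252 and 2339 in DMSO and 2559, 2665 and 2564 after YC-1 at 6 h. KMT2D in RBE at 16 h was at 2840.3, 2543 and 3164 in DMSO and 2527, 2261 and 3095 after YC-1. In SNU1079 they were 1823, 1873 and 1911 in DMSO and 3112, 2782 and 2427 after YC-1 at 6 h. KMT2D in SNU1079 at 16 h was at 1411, 1019 and 1314 in DMSO and 1942, 2979 and 2349 after YC-1. The SNU1079 YC-1 libraries lay above their DMSO libraries at both times (0.56 ± 0.16 and 0.95 ± 0.16, adjusted p = 0.00906 and 2.82e-05), calls that were lost under scaling to ribosomal protein genes at 0.34 and 0.39. The RBE values were 0.31 ± 0.16 and -0.12 ± 0.16. The SNU1079 DMSO level of KMT2D was itself lower at 16 h than at 6 h (-0.60 ± 0.16, adjusted p = 0.0191). That DMSO call was lost with equal sums (adjusted p = 0.0547), ribosomal protein scaling (0.0708), the compared libraries alone (0.0727) and the 12 SNU1079 libraries alone (0.104), and in 4 of the 24 fits without 1 library.

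KMT2B, a close relative of KMT2A, had RBE counts of 289, 277 and 288 in DMSO and 366, 334 and 352 after YC-1 at 6 h. KMT2B in RBE at 16 h was at 269.9, 328 and 337 in DMSO and 367, 390.3 and 493 after YC-1. KMT2B in SNU1079 stood at 566, 585 and 699 in DMSO and 1259.5, 745 and 707 after YC-1 at 6 h. KMT2B in SNU1079 at 16 h was at 504, 357 and 323 in DMSO and 1046, 1308 and 1009.9 after YC-1. YC-1 libraries were above DMSO libraries in all 4 comparisons, and the rise in SNU1079 at 16 h, 2.87-fold, passed the test (1.52 ± 0.19, adjusted p = 1.09e-06). The other values were 0.30 and 0.41 in RBE and 0.51 in SNU1079 at 6 h (adjusted p = 0.299, 0.0756 and 0.0552), and the RBE value at 16 h turned to -0.55 under scaling to ribosomal protein genes. Its SNU1079 control level also dropped from 6 h to 16 h (-0.66 ± 0.19, adjusted p = 0.035). This DMSO difference was no longer called without a filter (adjusted p = 0.0561), with equal sums (0.0762), upper quartiles (0.0513), the compared libraries alone (0.131) and the 12 SNU1079 libraries alone (0.197), and in 5 of the 24 fits without 1 library.

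KMT2A (MLL1), the founding member of the family and a target of leukaemic translocations, gave RBE counts of 1603, 2509 and 2445 in DMSO and 2169, 2156 and 2070.4 after YC-1 at 6 h. KMT2A in RBE at 16 h was at 2421, 2402 and 2777 in DMSO and 1348, 1171 and 1176 after YC-1. In SNU1079 KMT2A gave 1713, 1663 and 1892 in DMSO and 1443, 1454 and 1035 after YC-1 at 6 h. KMT2A in SNU1079 at 16 h was at 1695, 1544 and 1904 in DMSO and 687, 567 and 1165 after YC-1. At 16 h all YC-1 libraries were below their DMSO libraries, and KMT2A fell in both lines (-1.04 ± 0.20 and -1.15 ± 0.20, adjusted p = 1.68e-04 and 5.51e-05). At 6 h it did not pass (-0.01 in RBE and -0.44 in SNU1079). SETD1B, an enzyme of promoter H3K4 methylation, had RBE counts of 454, 397 and 422 in DMSO and 274, 237 and 257 after YC-1 at 6 h. SETD1B in RBE at 16 h was at 363, 437 and 459 in DMSO and 237, 222 and 235 after YC-1. SETD1B counts in SNU1079 were 319, 317 and 332 in DMSO and 319.6, 251 and 199 after YC-1 at 6 h. SETD1B in SNU1079 at 16 h was at 281, 202 and 227 in DMSO and 238, 330.4 and 310.4 after YC-1. The groups were separate in RBE, where it fell at both times (-0.73 ± 0.16 and -0.85 ± 0.16, adjusted p = 0.00224 and 1.74e-04), and they overlapped in SNU1079 (-0.36 and 0.31). Its paralogue SETD1A fell in RBE at 16 h (-1.06) and in SNU1079 at both times (-0.73 and -0.51), the last of these calls being lost without DMSO replicate 1, DMSO replicate 3, YC-1 replicate 1 or YC-1 replicate 2 (log2 fold change from -0.47 to -0.38, adjusted p from 0.0867 to 0.15). SETD7, which monomethylates H3K4 and other proteins, rose in RBE at 16 h by 0.39 (adjusted p = 0.0358) under the deposited scaling and stood at -0.57 under ribosomal protein scaling. That call was lost without any 1 of the 6 libraries compared (adjusted p from 0.0559 to 0.0972).

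The 4 enzymes of H3K36 and H3K79 fell in nearly every comparison: 3 fell at 6 h and 4 at 16 h in each line, and 0 rose. ASH1L (chromosome 1, 155335268 to 155562807, minus strand), an H3K36 dimethyltransferase of the Trithorax group, had the deepest falls among them. Its RBE counts were 1775, 2640.1 and 2696 in DMSO and 849, 752 and 843 after YC-1 at 6 h. ASH1L in RBE at 16 h was at 2968, 2729.8 and 3045 in DMSO and 528, 489.8 and 382 after YC-1. ASH1L counts in SNU1079 were 1844, 1912 and 1955 in DMSO and 674, 825 and 794 after YC-1 at 6 h. ASH1L in SNU1079 at 16 h was at 1405, 1180.2 and 1879.6 in DMSO and 385, 229 and 407 after YC-1. The groups were separate throughout, with 2.86-fold and 6.28-fold lower levels in RBE and 2.5-fold and 4.42-fold lower levels in SNU1079 (adjusted p = 6.92e-06 and 5.70e-10 for RBE and 3.05e-05 and 1.41e-08 for SNU1079). The fall was deeper at 16 h than at 6 h in both lines, by -1.14 ± 0.28 in RBE and -0.82 ± 0.28 in SNU1079 (adjusted p of the difference = 0.00747 and 0.0478). The RBE difference held under all 39 alternatives, and the SNU1079 difference was lost under 23 of them, 18 of which left out 1 library.

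SETD2, the enzyme of H3K36 trimethylation in gene bodies, gave RBE counts of 1529, 1977 and 1809 in DMSO and 1019, 1202 and 968 after YC-1 at 6 h. SETD2 in RBE at 16 h was at 1956, 1797 and 1888 in DMSO and 704, 750.5 and 627 after YC-1. SETD2 in SNU1079 gave 1486, 1467 and 1292 in DMSO and 805, 990.2 and 1065 after YC-1 at 6 h. SETD2 in SNU1079 at 16 h was at 1385, 1355 and 1742 in DMSO and 553, 383 and 757 after YC-1. All YC-1 libraries lay below their DMSO libraries, and the log2 fold changes were -0.73 ± 0.18 and -1.44 ± 0.18 in RBE and -0.58 ± 0.18 and -1.45 ± 0.18 in SNU1079 (adjusted p = 0.0039 and 7.30e-07 for RBE and 0.0182 and 7.04e-07 for SNU1079). The SNU1079 call at 6 h was lost without DMSO replicate 1, DMSO replicate 2 or YC-1 replicate 1 (log2 fold change from -0.55 to -0.46, adjusted p from 0.0587 to 0.0814). NSD1, which dimethylates H3K36, fell in RBE at 16 h (-1.10 ± 0.25) and in SNU1079 (-0.69 ± 0.25 and -0.72 ± 0.25), and its value in RBE at 6 h was -0.62 ± 0.25 (adjusted p = 0.0745). The SNU1079 calls of NSD1 were lost at 6 h without DMSO replicate 1, DMSO replicate 2, DMSO replicate 3, YC-1 replicate 1 or YC-1 replicate 3 (log2 fold change from -0.77 to -0.50, adjusted p from 0.0537 to 0.171) and at 16 h without DMSO replicate 3, YC-1 replicate 2 or YC-1 replicate 3 (log2 fold change from -0.59 to -0.49, adjusted p from 0.0827 to 0.113). DOT1L, a methyltransferase without a SET domain, fell at both times in RBE cells (-0.98 ± 0.31 and -1.36 ± 0.31) and in SNU1079 at 16 h (-1.06 ± 0.31), with -0.69 ± 0.31 in SNU1079 at 6 h (adjusted p = 0.0991). Its RBE call at 6 h was lost without DMSO replicate 1, DMSO replicate 2, DMSO replicate 3, YC-1 replicate 1 or YC-1 replicate 3 (log2 fold change from -1.0 to -0.88, adjusted p from 0.0507 to 0.0842), and its SNU1079 call at 16 h with the compared libraries alone (adjusted p = 0.103) and with the 12 SNU1079 libraries alone (0.0501).

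Among the 7 H3K9 methyltransferases 0 rose, and EHMT1 accounts for the single call at 6 h in RBE, with 3 falls in RBE at 16 h and 3 and 4 in SNU1079. EHMT1 (GLP, chromosome 9, 137618963 to 137870016) and EHMT2 (G9a, chromosome 6, 31879759 to 31897687) are partners that form a heterodimer and place H3K9 mono- and dimethylation. EHMT1 counts in RBE were 1676, 1754 and 1856 in DMSO and 517, 520.0 and 416 after YC-1 at 6 h. EHMT1 in RBE at 16 h was at 1978, 1671 and 2053 in DMSO and 216, 331 and 342 after YC-1. In SNU1079 EHMT1 stood at 817, 887 and 999 in DMSO and 281, 279 and 269.6 after YC-1 at 6 h. EHMT1 in SNU1079 at 16 h was at 909, 798 and 797 in DMSO and 157, 205 and 264 after YC-1. No YC-1 library overlapped its DMSO group, and EHMT1 was 3.65-fold and 6.51-fold lower in RBE and 3.24-fold and 4.06-fold lower in SNU1079 (log2 -1.87 ± 0.17 and -2.70 ± 0.17 in RBE and -1.70 ± 0.17 and -2.02 ± 0.17 in SNU1079, adjusted p = 7.51e-08 and 5.00e-11 for RBE and 2.29e-07 and 4.41e-09 for SNU1079). EHMT2 was called in none of the comparisons and its groups overlapped in all 4, with values of -0.03 and 0.04 in RBE and -0.03 and -0.22 in SNU1079 (adjusted p = 0.94 and 0.868 for RBE and 0.952 and 0.324 for SNU1079), although its RBE value at 16 h was -0.92 under ribosomal protein scaling. Per kilobase of exon, mean RBE levels at 16 h were 85.6 for EHMT1 and 204 for EHMT2 in DMSO, and 13.3 and 209 after YC-1. Exon length merges all annotated exons of a gene, 22.22 kb for EHMT1 and 7.29 kb for EHMT2, so the order of the pair depends on it. The mean counts themselves were 1900.8 for EHMT1 and 1483 for EHMT2 in DMSO, and 296.29 and 1520.6 after YC-1.

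The other H3K9 enzymes were called in fewer comparisons. SUV39H1, an enzyme of pericentromeric H3K9 trimethylation, fell in SNU1079 (-0.49 ± 0.14 and -0.60 ± 0.14, adjusted p = 0.0111 and 0.00106) and gave 0.12 and -0.01 in RBE. The 6 h call was lost without DMSO replicate 3 or YC-1 replicate 2 (log2 fold change -0.42 and -0.35, adjusted p = 0.0613 and 0.0791). Its paralogue SUV39H2 had values of 0.43 and 0.35 in RBE and -0.61 and -0.17 in SNU1079, none of which passed. SETDB1, which acts with TRIM28 at retroelements, fell in RBE at 16 h (-0.59 ± 0.13, adjusted p = 8.39e-04) and stood at -0.25 in RBE at 6 h and -0.11 and 0.17 in SNU1079. SETDB2 fell in SNU1079 at 16 h (-0.77 ± 0.32, adjusted p = 0.0456) with overlapping groups, a call that was lost in 18 of the 24 fits that left out 1 library, for example without DMSO replicate 2, DMSO replicate 3, YC-1 replicate 1 or YC-1 replicate 2 (log2 fold change from -0.70 to -0.58, adjusted p from 0.111 to 0.18). PRDM2 (RIZ) fell in RBE at 16 h (-1.03 ± 0.18) and in SNU1079 (-0.53 ± 0.18 and -0.79 ± 0.18), and the 6 h call was lost without DMSO replicate 1, DMSO replicate 2 or YC-1 replicate 1 (log2 fold change from -0.50 to -0.33, adjusted p from 0.0882 to 0.173).

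SETD5 and KMT2E are related SET domain proteins whose own histone methyltransferase activity is disputed, and both fell in at least 3 of the 4 comparisons. SETD5 counts in RBE were 1272, 1656 and 1838 in DMSO and 832, 849.6 and 748 after YC-1 at 6 h. SETD5 in RBE at 16 h was at 1926, 1668 and 1845 in DMSO and 478, 405 and 392 after YC-1. SETD5 counts in SNU1079 were 1272, 1301 and 1616 in DMSO and 699, 893 and 758 after YC-1 at 6 h. SETD5 in SNU1079 at 16 h was at 1365, 897 and 1115 in DMSO and 391, 146 and 434 after YC-1. The groups were separate in all 4 comparisons, with log2 fold changes of -0.96 ± 0.27 and -2.09 ± 0.27 in RBE and -0.83 ± 0.27 and -1.92 ± 0.27 in SNU1079 (adjusted p = 0.011 and 1.13e-06 for RBE and 0.0226 and 3.45e-06 for SNU1079). The calls at 6 h were lost in RBE without DMSO replicate 3 (log2 fold change -0.84, adjusted p = 0.0573) and in SNU1079 without DMSO replicate 3, YC-1 replicate 1 or YC-1 replicate 3 (log2 fold change from -0.81 to -0.72, adjusted p from 0.0582 to 0.0913). KMT2E fell in RBE at 16 h (-1.22 ± 0.18) and in SNU1079 at both times (-1.15 ± 0.18 and -1.5 ± 0.18), with -0.25 in RBE at 6 h. SMYD2, which methylates p53 besides histones, gave -0.21 and 0.08 in RBE and -0.22 and -0.15 in SNU1079 and was not called, and its RBE value at 16 h turned to -0.25 with equal sums and -0.89 with ribosomal protein scaling. SMYD3 fell at 6 h in RBE (-0.35 ± 0.11, adjusted p = 0.0222) and in SNU1079 (-0.29 ± 0.11, adjusted p = 0.0491). The RBE call was lost without DMSO replicate 1, DMSO replicate 3, YC-1 replicate 1 or YC-1 replicate 2 (log2 fold change from -0.36 to -0.29, adjusted p from 0.0526 to 0.104), and the SNU1079 call in 18 of the 24 fits that left out 1 library, for example without DMSO replicate 1, DMSO replicate 2, DMSO replicate 3, YC-1 replicate 2 or YC-1 replicate 3 (log2 fold change from -0.33 to -0.25, adjusted p from 0.0588 to 0.16).

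KDM1A (LSD1), which removes mono- and dimethylation of H3K4 as part of the CoREST complex, fell in all 4 comparisons by small to moderate amounts. KDM1A counts in RBE were 1798, 1864 and 1731 in DMSO and 1262, 1559.9 and 1419 after YC-1 at 6 h. KDM1A in RBE at 16 h was at 1714, 1705 and 1849.8 in DMSO and 935, 1164 and 1022 after YC-1. KDM1A in SNU1079 was at 1910.1, 1834 and 1852 in DMSO and 1701, 1357 and 1501 after YC-1 at 6 h. KDM1A in SNU1079 at 16 h was at 2155, 2317 and 2172 in DMSO and 1047, 957 and 1169 after YC-1. DMSO and YC-1 libraries were separate each time, and the log2 fold changes were -0.35 ± 0.10 and -0.76 ± 0.10 in RBE and -0.30 ± 0.10 and -1.07 ± 0.10 in SNU1079 (adjusted p = 0.0166 and 3.07e-06 for RBE and 0.0346 and 2.98e-08 for SNU1079). The 6 h calls were lost in RBE without DMSO replicate 2 or YC-1 replicate 1 (log2 fold change -0.32 and -0.27, adjusted p = 0.0652 and 0.105) and in SNU1079 without DMSO replicate 1, DMSO replicate 2, DMSO replicate 3, YC-1 replicate 2 or YC-1 replicate 3 (log2 fold change from -0.31 to -0.22, adjusted p from 0.0682 to 0.157). KDM1B, its only paralogue, was called in no comparison (-0.17 and -0.10 in RBE and -0.10 and 0.05 in SNU1079), and its SNU1079 value at 16 h became -0.51 under ribosomal protein scaling.

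In the KDM2 and PHF8 families, PHF2, a demethylase of H3K9 dimethylation, fell in all 4 comparisons. PHF2 counts in RBE were 751, 640.4 and 701 in DMSO and 466, 466 and 416 after YC-1 at 6 h. PHF2 in RBE at 16 h was at 723, 765 and 778 in DMSO and 279, 281 and 286 after YC-1. PHF2 in SNU1079 gave 689.7, 671 and 689 in DMSO and 494, 482 and 419.9 after YC-1 at 6 h. PHF2 in SNU1079 at 16 h was at 819, 643 and 716 in DMSO and 362, 538 and 370.0 after YC-1. The groups did not overlap, and the log2 fold changes were -0.63 ± 0.13 and -1.42 ± 0.13 in RBE and -0.56 ± 0.13 and -0.80 ± 0.13 in SNU1079 (adjusted p = 0.00107 and 1.28e-08 for RBE and 0.00282 and 3.08e-05 for SNU1079). KDM7A, a demethylase of H3K9 and H3K27 dimethylation, was the 1 member of the family that rose, in RBE at 6 h. KDM7A counts in RBE were 106, 166 and 129 in DMSO and 504, 322 and 249 after YC-1 at 6 h. KDM7A in RBE at 16 h was at 119, 109.6 and 178 in DMSO and 187, 401 and 169 after YC-1. In SNU1079 KDM7A counts were 182, 84.8 and 148 in DMSO and 165, 165 and 150.3 after YC-1 at 6 h. KDM7A in SNU1079 at 16 h was at 222, 56.9 and 126 in DMSO and 81.0, 116 and 96.1 after YC-1. The RBE libraries at 6 h were separate (2.6-fold, 1.38 ± 0.40, adjusted p = 0.0148), the groups of the other comparisons overlapped (0.81, 0.28 and -0.27), and the call was lost without DMSO replicate 1 or YC-1 replicate 1 (log2 fold change 1.22 and 1.10, adjusted p = 0.064 and 0.0902). KDM2B, which brings a PRC1 complex to CpG islands, fell in RBE at 16 h (-1.33 ± 0.21) and SNU1079 at 6 h (-0.88 ± 0.21) and gave -0.43 and -0.34 in the other 2. Its SNU1079 call was lost with the compared libraries alone (adjusted p = 0.102) and with the 12 SNU1079 libraries alone (0.0563). KDM2A, its H3K36 demethylase paralogue, fell in RBE at 16 h (-0.44 ± 0.10), with 0.01 in RBE at 6 h and 0.15 and -0.01 in SNU1079. PHF8 was not called (-0.32 and -0.30 in RBE and -0.06 and 0.13 in SNU1079).

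Enzymes of the KDM4 family, which act on trimethylated H3K9 and H3K36, split: KDM4A rose and KDM4B and KDM4C fell in each comparison. KDM4A (chromosome 1, 43650158 to 43705515) stood in RBE at 1034, 1234 and 1284 in DMSO and 1883, 1600.5 and 1678 after YC-1 at 6 h. KDM4A in RBE at 16 h was at 1148, 1029 and 1118 in DMSO and 1504, 1496 and 1489.7 after YC-1. KDM4A counts in SNU1079 were 937, 845 and 855 in DMSO and 1677, 1722 and 1873 after YC-1 at 6 h. KDM4A in SNU1079 at 16 h was at 949, 788 and 825 in DMSO and 1511, 1546 and 1270 after YC-1. All YC-1 libraries lay above their DMSO libraries, by 0.54 ± 0.11 and 0.45 ± 0.11 in RBE and 1.0 ± 0.11 and 0.75 ± 0.11 in SNU1079 (adjusted p = 5.70e-04 and 0.00115 for RBE and 3.68e-07 and 3.69e-06 for SNU1079), but the RBE value at 16 h was 0.12 with equal sums (adjusted p = 0.408) and -0.52 under ribosomal protein scaling and the SNU1079 value at 16 h 0.20 (adjusted p = 0.244).

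KDM4B (chromosome 19, 4969113 to 5153595) gave RBE counts of 341, 281 and 340.1 in DMSO and 143, 178 and 126 after YC-1 at 6 h. KDM4B in RBE at 16 h was at 293, 345 and 349 in DMSO and 99.7, 91.3 and 91.4 after YC-1. KDM4B in SNU1079 gave 609, 646 and 762 in DMSO and 443, 259.7 and 207 after YC-1 at 6 h. KDM4B in SNU1079 at 16 h was at 586, 462 and 461 in DMSO and 270.3, 397 and 208 after YC-1. The DMSO and YC-1 groups were apart in every comparison (-1.11 ± 0.23 and -1.79 ± 0.23 in RBE and -1.21 ± 0.23 and -0.83 ± 0.23 in SNU1079, adjusted p = 0.00117 and 1.51e-06 for RBE and 4.38e-04 and 0.00503 for SNU1079), and the SNU1079 call at 16 h was lost with the compared libraries alone (adjusted p = 0.0605). KDM4C (chromosome 9, 6720863 to 7175648) had RBE counts of 201, 210.0 and 206 in DMSO and 103, 111 and 81.5 after YC-1 at 6 h. KDM4C in RBE at 16 h was at 249, 233 and 202 in DMSO and 55.1, 60.6 and 63.3 after YC-1. KDM4C in SNU1079 had 320.1, 275 and 307 in DMSO and 170.4, 135 and 154 after YC-1 at 6 h. KDM4C in SNU1079 at 16 h was at 331, 296 and 359 in DMSO and 145, 153 and 103 after YC-1. These groups were apart as well (-1.06 ± 0.17 and -1.91 ± 0.17 in RBE and -0.97 ± 0.17 and -1.31 ± 0.17 in SNU1079, adjusted p = 5.18e-05 and 4.68e-09 for RBE and 1.28e-04 and 1.04e-06 for SNU1079).

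Among the KDM5 demethylases of trimethylated H3K4, KDM5A and KDM5B fell in RBE at both times and in SNU1079 at 16 h, and KDM5C rose at 16 h. KDM5A, known as a partner of the retinoblastoma protein, had RBE counts of 1605, 1718 and 1618 in DMSO and 1058, 1192 and 994 after YC-1 at 6 h. KDM5A in RBE at 16 h was at 1638, 1757 and 1742 in DMSO and 753, 810.0 and 514 after YC-1. KDM5A in SNU1079 had 1423, 1276 and 1359.8 in DMSO and 852, 1267 and 1228 after YC-1 at 6 h. KDM5A in SNU1079 at 16 h was at 2089, 1222 and 1668 in DMSO and 473, 836 and 613 after YC-1. Its YC-1 libraries were below the DMSO libraries in each comparison, and the fold changes were -0.61 ± 0.20 and -1.33 ± 0.20 in RBE and -0.30 ± 0.20 and -1.38 ± 0.20 in SNU1079 (adjusted p = 0.0324 and 1.19e-05 for RBE and 0.306 and 7.81e-06 for SNU1079). The RBE call at 6 h was lost without DMSO replicate 1, DMSO replicate 2, DMSO replicate 3, YC-1 replicate 1 or YC-1 replicate 3 (log2 fold change from -0.63 to -0.55, adjusted p from 0.0633 to 0.106).

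KDM5B stood in RBE at 1671, 1868 and 1955 in DMSO and 1111, 1069.8 and 1135 after YC-1 at 6 h. KDM5B in RBE at 16 h was at 1845, 1678 and 1849 in DMSO and 825, 860 and 760.3 after YC-1. In SNU1079 KDM5B stood at 1739, 1695 and 1647 in DMSO and 1829, 1816 and 1746 after YC-1 at 6 h. KDM5B in SNU1079 at 16 h was at 1582, 1571 and 1851 in DMSO and 674, 700.0 and 852 after YC-1. It was lower in all YC-1 libraries of RBE and of SNU1079 at 16 h and higher in all those of SNU1079 at 6 h, by an amount that did not pass (-0.73 ± 0.10 and -1.14 ± 0.10 in RBE and 0.09 ± 0.10 and -1.17 ± 0.10 in SNU1079, adjusted p = 9.80e-06 and 4.30e-09 for RBE and 0.578 and 3.19e-09 for SNU1079). With the times pooled the SNU1079 value was -0.54 (adjusted p = 0.032). KDM5C, an X-linked member of the family, rose at 16 h in RBE (0.46 ± 0.15, adjusted p = 0.0154) and in SNU1079 (0.81 ± 0.15, adjusted p = 1.25e-04), values that were -0.51 and 0.26 under ribosomal protein scaling. With equal sums the RBE value was 0.13 (adjusted p = 0.554), and the 6 h values of KDM5C were 0.22 and 0.20.

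The pair of H3K27 demethylases whose promoters are shown above moved in opposite directions in both lines. KDM6A (UTX, chromosome X, 44873177 to 45112602, plus strand) is a subunit of the KMT2C and KMT2D complexes. KDM6A counts in RBE were 831, 811 and 876 in DMSO and 236, 278 and 224 after YC-1 at 6 h. KDM6A in RBE at 16 h was at 891, 868 and 854 in DMSO and 98.9, 98.0 and 114 after YC-1. KDM6A in SNU1079 was at 303, 359 and 253 in DMSO and 46.5, 83.7 and 137 after YC-1 at 6 h. KDM6A in SNU1079 at 16 h was at 322, 363 and 379 in DMSO and 28.2, 11.2 and 19.1 after YC-1. The groups were separate in all 4 comparisons, and after 16 h the transcript was 8.34-fold lower in RBE and 18.4-fold lower in SNU1079. Log2 fold changes were -1.77 ± 0.29 and -3.06 ± 0.29 in RBE and -1.89 ± 0.29 and -4.20 ± 0.29 in SNU1079 (adjusted p = 8.02e-05 and 1.46e-08 for RBE and 3.44e-05 and 1.64e-10 for SNU1079). KDM6B (JMJD3, chromosome 17, 7839904 to 7854796, plus strand) is known as an inducible enzyme of inflammatory and stress responses. KDM6B counts in RBE were 122, 64.0 and 96.1 in DMSO and 650.0, 669.7 and 376 after YC-1 at 6 h. KDM6B in RBE at 16 h was at 58.0, 166 and 61.2 in DMSO and 537, 359 and 481 after YC-1. KDM6B in SNU1079 reached 405, 302 and 322 in DMSO and 2301, 1639 and 1741 after YC-1 at 6 h. KDM6B in SNU1079 at 16 h was at 264, 172 and 315 in DMSO and 2722, 1417 and 1272 after YC-1. All YC-1 libraries exceeded all DMSO libraries of their line and time, by a mean fold of 5.97 and 5.34 in RBE and 5.49 and 6.98 in SNU1079 (2.58 ± 0.36 and 2.42 ± 0.36 in RBE and 2.46 ± 0.36 and 2.80 ± 0.36 in SNU1079, adjusted p = 1.59e-05 and 9.06e-06 for RBE and 2.40e-05 and 1.36e-06 for SNU1079).

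Per kilobase of exon, KDM6A stood above KDM6B in DMSO and below it after YC-1 in both lines at 16 h and in RBE at 6 h. In RBE DMSO at 16 h the mean was 122 for KDM6A and 13.1 for KDM6B, and after YC-1 it was 14.5 and 63.2. In SNU1079 at 16 h the means were 49.7 and 34.5 in DMSO and 2.73 and 248 after YC-1. At 6 h, RBE had 118 and 12.9 in DMSO and 34.4 and 77.9 after YC-1. In SNU1079 at 6 h the DMSO means lay within their spread, at 42.8 for KDM6A (SD 7.42) and 47.3 for KDM6B (SD 7.51). After YC-1 the means there were 12.5 and 261. The order of the pair was not tested. KDM6B was the lowest per kilobase of all 42 genes in RBE DMSO at 16 h, and KDM6A the lowest of all 42 in SNU1079 with YC-1 at 16 h.

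The question whether YC-1 acted alike at both times was addressed by testing the difference between effects. In RBE, 12 members differed between 16 h and 6 h, against 18.2% of all tested genes, and all 12 were lower at 16 h. ASH1L, PRDM2, KMT2E, PHF2 and KDM4C held under every alternative run, and the differences of KDM6A, SETD5, KDM2A, KDM2B and KDM5B were lost under 11 to 17 of 39. The largest was KDM6A (-1.29 ± 0.40, adjusted p = 0.0309), followed by SETD5 (-1.14 ± 0.38) and ASH1L, and KMT2A differed by -1.03 ± 0.28 (adjusted p = 0.0145). The count fell to 5 without RBE DMSO at 6 h replicate 1, to 6 without DMSO at 16 h replicate 3 or YC-1 at 6 h replicate 2, and to 7 without DMSO at 6 h replicate 2, YC-1 at 6 h replicate 1 or YC-1 at 16 h replicate 1. It was 23 when the RBE libraries alone were fitted, with 34.9% of all tested genes called. In SNU1079, 8 members (19%) differed, 7 towards lower and 1 towards higher, against 17.0% of all tested genes. KDM6A (-2.32 ± 0.40, adjusted p = 5.93e-04), KDM5B (-1.26 ± 0.14, adjusted p = 5.16e-06), KDM5A (-1.08 ± 0.29) and EZH2 (-0.99 ± 0.18) were lower at 16 h, and KMT2B was higher (1.02 ± 0.27, adjusted p = 0.0141). This count was 14 without SNU1079 YC-1 at 6 h replicate 1 and 4 when the SNU1079 libraries alone were fitted, with 6.04% of all tested genes called in the latter. The KMT2B difference was lost under 4 of 39 alternatives, equal sums among them. Without the 3 SNU1079 libraries left out in the opening counts, the RBE count was 19 and the SNU1079 count 13, against 31.8% and 30.2% of all tested genes.

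Between the lines, 2 members differed in their YC-1 effect at 6 h, EED and KDM5B, against 1.54% of all tested genes. KDM5B differed by 0.81 ± 0.14 (adjusted p = 0.00268), and 1 call was left in 17 of the 24 fits without 1 library. At 16 h, 9 members differed, against 14.6% of all tested genes, with 3 lower and 6 higher in SNU1079. Without those 3 SNU1079 libraries the counts were 4 at 6 h and 15 at 16 h, against 6.62% and 22.8% of all tested genes. Besides EED, EZH2 was lower in SNU1079 (-0.91 ± 0.18, adjusted p = 0.00155), as was SUV39H1 (-0.59 ± 0.20), a difference lost under 25 of 38 alternatives. SETD1B (1.16 ± 0.23, adjusted p = 0.00205), KMT2B (1.11 ± 0.27, adjusted p = 0.00876) and KMT2D (1.07 ± 0.22, adjusted p = 0.00241) were higher, with KDM2B, SETDB1 and PHF2 at 0.99, 0.77 and 0.62. JARID2 and KDM6B, the largest fall and rise at 6 h, did not pass the test of a difference between the lines, which stood for JARID2 at 0.33 ± 0.47 at 6 h and 0.52 ± 0.47 at 16 h, and for KDM6B at -0.12 ± 0.51 and 0.39 ± 0.51.

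**Figure D3:**
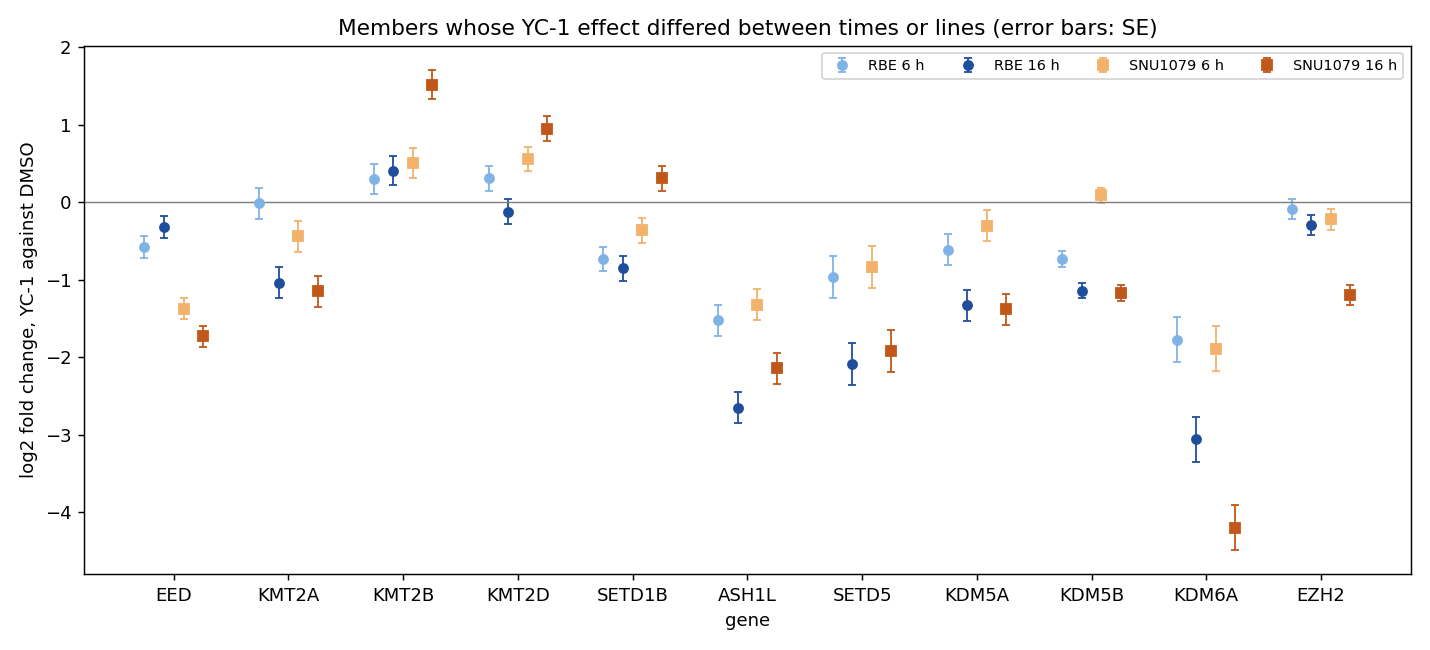
Log2 fold change (y axis) with its SE (error bars) of 11 members whose YC-1 effect differed between times or lines (x axis), in RBE (circles) and SNU1079 (squares) at 6 h (light) and 16 h (dark). EED lies lower in SNU1079 at both times, KDM6A moves down from 6 h to 16 h in both lines, and SETD1B, KMT2B and KMT2D lie higher in SNU1079 than in RBE at 16 h.

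The lines already differed without YC-1. Comparing SNU1079 with RBE in DMSO, 19 members (45.2%) differed at 6 h, against 56.4% of all tested genes. At 16 h, 24 members (57.1%) differed, against 55.1% of all tested genes, so the members' shares were not far from those of all genes. KDM6B was higher in SNU1079, by 1.90 ± 0.36 and 1.52 ± 0.36 at the 2 times, as were JARID2 (1.31 ± 0.33 and 0.98 ± 0.33), KDM4B (1.06 ± 0.23 and 0.61 ± 0.23) and EZH1 (0.70 ± 0.18 and 0.74 ± 0.18). KDM6A was lower in SNU1079 (-1.47 ± 0.29 and -1.30 ± 0.29), as were NSD1 (-1.11 ± 0.25 and -1.66 ± 0.25), EHMT1 (-0.97 ± 0.17 and -1.18 ± 0.17) and KDM2A (-0.82 ± 0.10 and -1.01 ± 0.10). Between 6 h and 16 h of DMSO, limma called 0 members in RBE (0.0448% of all tested genes), where 1 member had an unadjusted p under 0.05. In SNU1079 it called 4, which is 9.52% of the members against 8.57% of all tested genes: EZH2, KMT2B and KMT2D, given above, and KDM5C (-0.51 ± 0.15). That count was 1 without SNU1079 DMSO at 16 h replicate 2 or any 1 of the 3 DMSO libraries at 6 h, 2 without DMSO at 16 h replicate 3, and 10 without the 3 SNU1079 libraries left out above, where 18.7% of all tested genes were called. The KDM5C difference was lost under 20 of 39 alternatives.

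The members also differ in the stretch of genome they span, a property on which the choice of members did not rest and which earlier results of these data had already pointed to. JARID2 spans 275.7 kb. The falling KDM6A spans 239.4 kb and the rising KDM6B 14.9 kb. EHMT1 spans 251.1 kb and EHMT2 17.9 kb. KMT2C spans 301.1 kb, against 20.9 kb for KMT2B and 40.8 kb for KMT2D. In the KDM4 family the span is 184.5 kb for KDM4B, 454.8 kb for KDM4C and 55.4 kb for KDM4A. KDM5A, KDM5B and KDM5C span 109.3, 85 and 34.1 kb. Other members departed from an order by span, or paired near-equal spans with unlike changes. The part of span in the results was not tested. SMYD3 has the longest span of all members at 758 kb and fold changes between -0.35 and -0.09. SETD7 (110.8 kb) rose in RBE at 16 h, KDM7A (92.3 kb) rose in RBE at 6 h, and PHF8 (112.3 kb) was called in no comparison. EED fell in SNU1079 with a span of 34.3 kb. KDM1A, which fell in all 4, spans 64.2 kb, and KDM1B, which was not called, 68.5 kb. SETD1A and SETD1B span 27.4 and 28.4 kb, with fold changes in SNU1079 at 16 h of -0.51 and 0.31. KDM2A and KDM2B followed the order instead, with spans of 138.8 and 151.9 kb and RBE values at 16 h of -0.44 and -1.33.

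Across the 42 members, Spearman's rho of log2 fold change with span in RBE was -0.63 at 6 h and -0.65 at 16 h, in SNU1079 -0.51 and -0.57, and -0.62 for the mean of the 4 fold changes. Across 17258 tested genes with a GENCODE 29 match it was -0.32, -0.41, -0.27 and -0.31. These are correlations across genes of the same libraries, which are not independent replicates, and no test is attached. The median span was 83.3 kb for the members and 26.28 kb for all tested genes. Of the 15 members that span 100 to 300 kb, 13 fell and 1 rose in RBE at 16 h and 11 fell and 0 rose in SNU1079 at 16 h, and of the 2365 tested genes of that span 60.6% and 53.2% fell while 5.29% and 7.27% rose. Of the 7 members under 30 kb, 2 fell and 1 rose in RBE at 16 h and 2 fell and 2 rose in SNU1079 at 16 h, and of the 9285 tested genes of that span 14.3% and 16.5% fell while 38.4% and 38.2% rose.

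**Figure D4:**
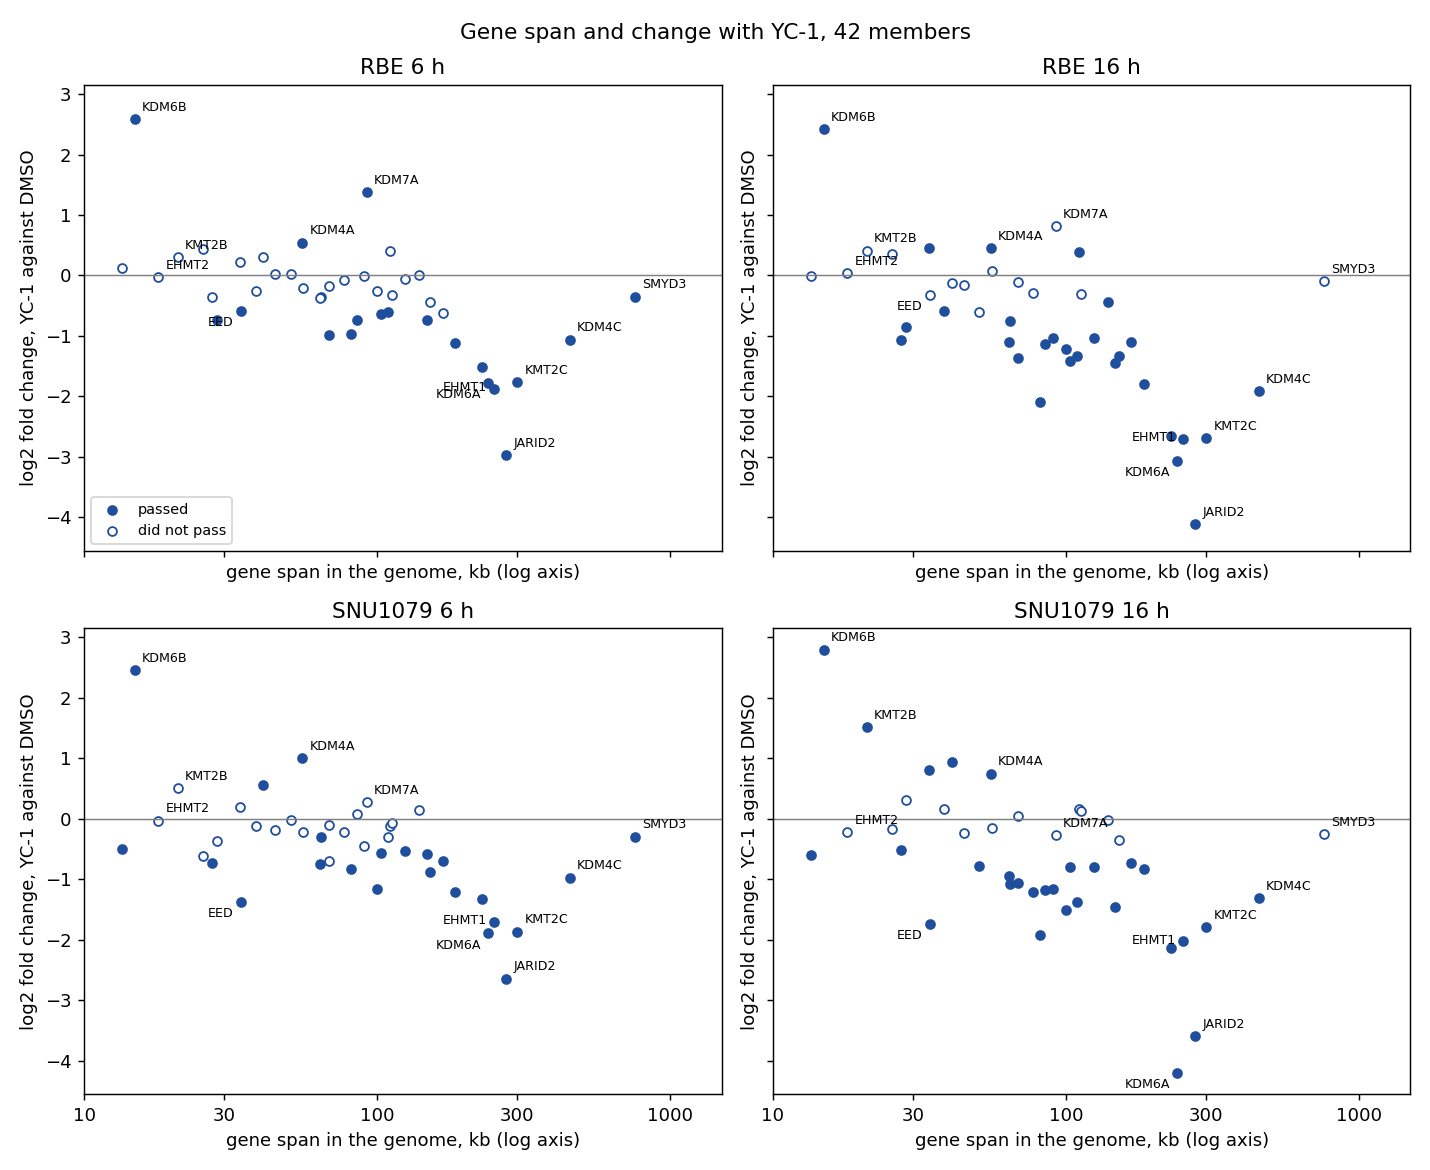
Genomic span in kb (x axis, log scale) against log2 fold change under YC-1 (y axis) for the 42 members, in 4 panels for the lines and times, with filled points for an adjusted p under 0.05. Members beyond 200 kb lie low in every panel apart from SMYD3 at 758 kb, and KDM6B, at 14.9 kb, lies highest in each.

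Many of these genes share their locus with another transcript. In GENCODE 29, 29 of the 42 members are overlapped by a gene on the opposite strand and 17 of them exon on exon, including ASH1L (ASH1L-AS1), KMT2E (KMT2E-AS1), EHMT2 (EHMT2-AS1), KDM4A (KDM4A-AS1) and SUV39H2 (DCLRE1C). The kit keeps strand, but the strand setting of the counting is not given in the sources used here, so reads of such partners cannot be told apart from those of the member. For KDM6A, KDM6B, EED and PHF2 no opposite-strand gene is annotated.

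The partners of these enzymes were followed in 6 further lists, whose counts stand beside 12.4% lower and 11.6% higher among all tested genes in RBE at 6 h, 26.6% and 27.3% in RBE at 16 h, 14.2% and 14.0% in SNU1079 at 6 h, and 25.8% and 28.7% in SNU1079 at 16 h. Of 7 tested accessory and histone-binding subunits of PRC2, 1 fell and 0 rose in RBE at 6 h, 4 fell and 2 rose in RBE at 16 h, 3 fell and 1 rose in SNU1079 at 6 h, and 5 fell and 1 rose in SNU1079 at 16 h. AEBP2, which defines the PRC2 form that also holds JARID2, fell in all 4 (-1.14 and -2.07 in RBE and -1.08 and -1.78 in SNU1079), in RBE at 16 h from 1062 ± 70.8 to 252 ± 6.06 (mean ± SD, n = 3). LCOR, whose locus also encodes a PRC2-binding protein, gave -0.31 and -1.52 in RBE and -0.78 and -1.47 in SNU1079, and fell in all but RBE at 6 h. Its SNU1079 call at 6 h lay at the threshold (adjusted p = 0.0499). PHF1, a Tudor domain subunit, gave 0.32 and 0.67 in RBE and 0.89 and 0.86 in SNU1079 and rose in all but RBE at 6 h, but its RBE value at 16 h was -0.30 under ribosomal protein scaling. RBBP7, a histone-binding subunit, rose in RBE at 16 h, with -0.07 and 0.38 in RBE and -0.07 and -0.25 in SNU1079, and that value turned to -0.59 under ribosomal protein scaling.

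Polycomb repressive complex 1 ubiquitinates histone H2A, and some of its forms read the H3K27 mark. Of the 21 tested subunits of all forms, 3 fell and 3 rose in RBE at 6 h, 7 and 7 in RBE at 16 h, 4 and 4 in SNU1079 at 6 h, and 8 and 7 in SNU1079 at 16 h. CBX2 fell in all 4 (-0.90 and -1.52 in RBE and -0.73 and -1.20 in SNU1079), and BCORL1 gave -1.04 and -1.70 in RBE and -0.30 and -0.92 in SNU1079, falling in all but SNU1079 at 6 h. PCGF1 rose in all 4 (0.89 and 1.63 in RBE and 0.46 and 1.15 in SNU1079).

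Of 12 tested subunits of the COMPASS and MLL complexes, in which KMT2 and SETD1 enzymes work, 1 fell and 1 rose in RBE at 6 h, 4 and 2 in RBE at 16 h, 1 and 1 in SNU1079 at 6 h, and 3 and 3 in SNU1079 at 16 h. NCOA6, a coactivator subunit of the KMT2C and KMT2D complexes, fell in all 4 (-0.64 and -1.57 in RBE and -0.54 and -1.13 in SNU1079), and WDR82, a SETD1 partner, fell at 16 h (-0.09 and -0.82 in RBE and -0.01 and -1.13 in SNU1079). Core subunit ASH2L rose in all but SNU1079 at 16 h (0.43 and 0.62 in RBE and 0.58 and 0.15 in SNU1079), with -0.34 in RBE at 16 h under ribosomal protein scaling, and the CpG-binding CXXC1 rose in SNU1079 at 16 h (0.08 and 0.32 in RBE and 0.31 and 1.33 in SNU1079).

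Of 15 other lysine methyltransferases, 3 fell and 4 rose in RBE at 6 h, 9 and 2 in RBE at 16 h, 4 and 4 in SNU1079 at 6 h, and 6 and 5 in SNU1079 at 16 h. MECOM, an oncogenic PRDM protein, fell in all 4 (-1.34 and -3.06 in RBE and -1.86 and -3.98 in SNU1079), in SNU1079 at 16 h from 166 ± 10.1 to 9.99 ± 3.69 (mean ± SD, n = 3). PRDM10 fell in all 4 as well (-1.08 and -2.13 in RBE and -1.44 and -1.52 in SNU1079), and SETD4 (0.81 and 0.90 in RBE and 0.94 and 1.30 in SNU1079) and SETMAR (0.89 and 0.86 in RBE and 1.37 and 0.91 in SNU1079) rose in all 4, with RBE values at 16 h of -0.07 and -0.11 under ribosomal protein scaling. Of 12 other JmjC proteins, 3 fell and 2 rose in RBE at 6 h, 6 and 1 in RBE at 16 h, 3 and 2 in SNU1079 at 6 h, and 2 and 1 in SNU1079 at 16 h. JMJD1C fell in all 4 (-0.72 and -1.42 in RBE and -0.76 and -1.88 in SNU1079), HIF1AN, the hydroxylase that restrains HIF-1, fell in all but RBE at 6 h (-0.36 and -1.47 in RBE and -0.87 and -1.15 in SNU1079), and RIOX2 rose in all 4 (0.31 and 0.30 in RBE and 0.34 and 0.48 in SNU1079), with 16 h values of -0.67 in RBE and -0.08 in SNU1079 under ribosomal protein scaling and -0.03 in RBE with equal sums. The JMJD1C call in RBE at 6 h lay at the threshold, with an adjusted p that rounds to 0.05. KDM3A, an H3K9 demethylase and known HIF-1 target, rose at 6 h in both lines and fell in RBE at 16 h (0.43 and -0.33 in RBE and 0.62 and 0.16 in SNU1079).

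Of 17 tested partners of LSD1 and of the H3K9 enzymes, 2 fell and 3 rose in RBE at 6 h, 8 and 5 in RBE at 16 h, 3 and 1 in SNU1079 at 6 h, and 8 and 4 in SNU1079 at 16 h. ATF7IP, the partner that stabilises SETDB1, fell in all but RBE at 6 h (-0.42 and -2.20 in RBE and -0.79 and -2.02 in SNU1079), and PHF21A, the reader subunit of the LSD1 complex, fell in all 4 (-0.77 and -2.0 in RBE and -0.51 and -1.72 in SNU1079). TRIM28, the corepressor that recruits SETDB1, rose in all 4 (0.53 and 1.09 in RBE and 0.40 and 1.05 in SNU1079), and WIZ, a zinc finger partner of EHMT1 and EHMT2, rose at 16 h (0.46 and 1.09 in RBE and 0.30 and 1.45 in SNU1079). List medians ran from -0.65 for the PRC2 accessory subunits in SNU1079 at 16 h to 0.15 for the PRC1 subunits in RBE at 6 h, beside members' medians of -0.34 to -0.80.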

How the data were processed

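RNA was extracted with a Qiagen RNeasy Plus kit and sequenced after TruSeq Stranded mRNA preparation, per the labels' protocols. Normalised counts, a signal that is not raw reads, were deposited by the authors for each gene, with STAR and DESeq2 on hg38 named in the submitters' processing notes. For their versions, the read counter, its strand setting and the gene models, nothing was given in the sources used here. Since low values were not multiples of 1 step per library, reads were not recovered and tests of raw counts were not run.

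Of 57820 genes, 24157 were at 0 in every library. Genes with at least 10 in at least 3 libraries (17860) entered limma 3.58.1 (R 4.3.3) on the log2 scale after adding 1, with an intensity trend, 1 mean per group over all 24 libraries and 16 residual degrees of freedom. P-values are two-sided, Benjamini-Hochberg adjusted over all genes tested, for 12 comparisons, with a threshold of 0.05. With 3 libraries a side, the smallest exact permutation p is 0.1. The tests were checked on simulated data, where the share of false calls lay somewhat above the nominal threshold.

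Positions, spans and exon lengths came from GENCODE 29 on GRCh38, matched by Ensembl identifier, and promoter windows from RefSeq. Python 3.11.15 with matplotlib 3.10.9 made the figures. The members and lists were chosen with earlier results of these data known. All members are accounted for. Library values are given for PRC2, for members called alike in all 4 comparisons, for the 5 lowest and 5 highest mean fold changes, for members called with opposite signs (0 of them) and for differences of effects of at least 1. From each further list the 2 lowest and 2 highest called genes are named, except 1 gene that is not reported here, and EPOP, PCGF2, PAGR1 and ATF7IP2 were not tested. Alternatives covered pseudocount, filter, scaling, variance model, libraries fitted, replicate block, pooled times, a minimum log2 change of 0.5 and each library left out.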

Additional observations from a re-analysis of the deposited data

Results flagged for a closer look

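A difference between YC-1 effects was tested for every member as a contrast of the same limma fit, and 31 such differences had an adjusted p under 0.05. Of these, 14 held under every alternative run, 17 were lost under at least 1, 13 of them when 1 library was left out, and 0 reversed. They are listed as log2 differences with no cause weighed.

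In RBE the effect was lower at 16 h than at 6 h for KMT2A (-1.03), ASH1L (-1.14), EHMT1 (-0.83), PRDM2 (-0.97), KMT2E (-0.96), SETD5 (-1.14), KDM2A (-0.45), KDM2B (-0.90), PHF2 (-0.79), KDM4C (-0.85), KDM5B (-0.41) and KDM6A (-1.29), with adjusted p from 0.00561 to 0.0432. In SNU1079 the effect was lower at 16 h for EZH2 (-0.99), SETD2 (-0.87), ASH1L (-0.82), KDM1A (-0.77), KDM5A (-1.08), KDM5B (-1.26) and KDM6A (-2.32) and higher for KMT2B (1.02), with adjusted p from 5.16e-06 to 0.0478. All 3 libraries of KDM6A with YC-1 at 16 h in SNU1079 lay below its 3 libraries at 6 h, and its RBE libraries did the same.

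Between lines at 6 h, the effect in SNU1079 was lower than in RBE for EED (-0.79) and higher for KDM5B (0.81), with adjusted p of 0.0425 and 0.00268. At 16 h it was lower in SNU1079 for EZH2 (-0.91), EED (-1.41) and SUV39H1 (-0.59) and higher for KMT2B (1.11), KMT2D (1.07), SETD1B (1.16), SETDB1 (0.77), KDM2B (0.99) and PHF2 (0.62), with adjusted p from 6.33e-05 to 0.0486. The EED difference at 6 h was lost in 18 of the 24 fits that left out 1 library (adjusted p from 0.052 to 0.113) and under 5 other alternatives, and its difference at 16 h held under all 38.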

How the results depend on the processing

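Counts of members are given with the value under the deposited processing in brackets. Some counts, such as those for the replicate block, pooled times, the minimum change and single libraries left out, have no all-gene share beside them. From those counts it cannot be read whether the members moved apart from all tested genes. The fold changes with DMSO (168 values over 42 members and 4 comparisons) were set against those of the deposited processing. A value counted as unchanged when its call stayed the same. A change of sign counted as a reversal only where either value was called, so uncalled values could change sign uncounted. By that rule 165 were unchanged with a replicate block, 168 and 167 with pseudocounts of 0.5 and 5, and 164 with upper quartile scaling. Equal sums left 148 unchanged, ribosomal protein scaling 138 and the libraries of 1 line alone 142. Over the fits that each left out 1 library, 3913 of 4032 values were unchanged by the same rule, 92 calls were lost, 27 were gained and 0 reversed.

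Without a filter, the difference between times in RBE gave 7 members (12), that between lines at 6 h 1 (2) and DMSO over time in SNU1079 2 (4). Equal sums gave 1 higher in RBE at 16 h (4), 22 and 13 for the differences between times in RBE and SNU1079 (12 and 8) and 1 for DMSO over time. Leaving mitochondrial genes out of the sums gave 2 higher in RBE at 16 h and 19 for the times in RBE. Upper quartiles gave 1 for the lines at 6 h and 2 for DMSO over time. Ribosomal protein scaling gave 1 higher and 39 lower in RBE at 16 h (4 and 24), 2 higher in SNU1079 at 16 h (5), 39 for the times in RBE, 14 for the lines at 16 h (9) and 1 for DMSO over time, and limma called 0 for the lines at 6 h. With only the libraries compared, 6 were higher in RBE at 6 h (3) and 12 lower in SNU1079 at 6 h (20), with 23 and 4 for the times in RBE and SNU1079, 1 for the lines at 6 h and 1 for DMSO over time. With the 12 libraries of a line, the same counts were 5, 11, 23 and 4, and limma called 0 for DMSO over time. Pooled times gave 5 higher in RBE and 5 in SNU1079, and a minimum change of 0.5 gave 1 higher in RBE at 16 h. Leaving out 3 SNU1079 libraries, chosen after seeing the data, gave 5 higher in RBE at 6 h, 19 and 13 for the times, 4 and 15 for the lines and 10 for DMSO over time. Shares of all tested genes called moved too. For the times in RBE they were 18.2% as deposited, 8.18% without a filter, 22.5% with equal sums, 46.5% with ribosomal protein scaling and 34.9% with 1 line. For the times in SNU1079 they were 17.0%, 7.51%, 20.9%, 15.1% and 6.04%. Ribosomal protein scaling called 5.05% higher and 58.5% lower in RBE at 16 h, 12% higher in SNU1079 at 16 h, and 1.09% and 21.2% for the lines at 6 h and 16 h. DMSO over time in SNU1079 ran from 2.63% with 1 line to 18.7% without the 3 libraries. The cause of these shifts was not tested.

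Where either value was called, directions reversed for SMYD2 in RBE at 16 h with equal sums (-0.25). With ribosomal protein scaling they reversed in RBE at 16 h for KMT2B (-0.55), SETD7 (-0.57), EHMT2 (-0.92), SMYD2 (-0.89), KDM4A (-0.52) and KDM5C (-0.51) and in SNU1079 at 16 h for KDM1B (-0.51). With pooled times KDM5B in SNU1079 was -0.54.

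Leaving out each library in turn gave 2 to 4 higher and 13 to 18 lower in RBE at 6 h, 3 to 5 and 24 to 27 in RBE at 16 h, 3 to 4 and 14 to 21 in SNU1079 at 6 h, and 5 to 6 and 21 to 25 in SNU1079 at 16 h. The differences between times ranged over 5 to 15 in RBE and 6 to 14 in SNU1079, and those between lines over 1 to 3 at 6 h and 6 to 12 at 16 h. The lines in DMSO gave 17 to 21 and 19 to 25, DMSO over time in SNU1079 1 to 6, and the rank correlation with span -0.63 to -0.61.

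Of 36 same-numbered pairs of libraries, 4, all in SNU1079, had deviations correlated above 0.1, with r from -0.21 to 0.34. Libraries of different number were not compared, so these values cannot decide whether replicate numbers pair the libraries. With the replicate number as a block, 25 members fell in RBE at 16 h (24) and 18 in SNU1079 at 6 h (20). The replicate block gave 11 and 9 for the times, 8 for the lines at 16 h, 17 and 17 for the lines in DMSO (19 and 24) and 3 for DMSO over time, and the other counts were equal.

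Depth in reads is unknown, since the values are normalised counts, so no counting interval can be given.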
